A study of Homo sapiens and Mus musculus with 5 samples.

Results

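The comparison described here sets fragment activity in Neuro-2a, a mouse neuroblastoma line, against that in HEK-293T, a human embryonic kidney line that carries the SV40 large T antigen. Both lines received 1 plasmid pool of human DNA fragments, each carrying an allele of a SNP linked to schizophrenia, and each line gave 3 RNA libraries from 3 transfections, with no treatment named. Members were all alleles whose plasmid input was above 0 in the tables of both lines, joined on the name of the fragment: 1449 alleles, of 1471 in the Neuro-2a table, 1561 in the HEK-293T table and 1625 in any of the 4 lines of the study. They belong to 926 fragments and 345 SNPs, of which 20 have an rs number as a name and the other 325 a coordinate. No member had more than 1 RNA library of a line at 0, so alleles silent in most libraries of a line are not compared here. Up to 3 placements exist per SNP, called by the 50, 100 or 150 bases that precede it in the fragment, the opposite flank being 150, 100 or 50 bases long. The files number the alleles of a SNP 1 and 2 without their bases. Each line stands for itself: species and tissue of origin cannot be told apart between 2 lines, and since the libraries hold reporter fragments alone, no marker gene of either line was measured.

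In STARR-seq a candidate fragment is cloned into the transcribed part of a reporter plasmid, so an active enhancer drives its own sequence into RNA. Activity depends on the transcription factors of the host cell, and the same fragment can be strong in one cell type and silent in another. Fragments that hold a gene's transcription start can act in the assay too, since many promoters have enhancer activity. As both lines share the plasmid input, the ratio of the RNA levels of an allele is taken as the ratio of its activities, relative to the other alleles. The log2 of Neuro-2a over HEK-293T is used below.

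The promoter sequences of 3 genes are printed first. They hold the only member SNPs found inside a promoter, and alleles at ZNF823 and IZUMO1 were among those with the smallest p. The 20 SNPs named by rs number have no coordinate here and were not searched. A promoter here is the window from 250 bases before to 50 bases after an annotated start of a protein-coding gene in RefSeq (GRCh38.p14). No source used here names the genome build of the SNP positions. Of the 7 SNPs on chromosome 20, 2 lie past the end of that chromosome in GRCh37, and all gene assignments below hold only if the build is GRCh38. Among members named by coordinate, 3 SNPs lay inside such a window. At position 11738921 of chromosome 19 it was that of ZNF823, a zinc finger gene. At position 48746982 of chromosome 19 it was that of IZUMO1, which encodes the sperm protein that binds the egg. At position 199851396 of chromosome 2 it was that of FTCDNL1, a gene related to formiminotransferase cyclodeaminase. The windows follow, on the strand of the gene, with the bases within 50 of the SNP in capitals, which every placement of the SNP carries.
ZNF823, chr19:11738897-11739196, minus strand: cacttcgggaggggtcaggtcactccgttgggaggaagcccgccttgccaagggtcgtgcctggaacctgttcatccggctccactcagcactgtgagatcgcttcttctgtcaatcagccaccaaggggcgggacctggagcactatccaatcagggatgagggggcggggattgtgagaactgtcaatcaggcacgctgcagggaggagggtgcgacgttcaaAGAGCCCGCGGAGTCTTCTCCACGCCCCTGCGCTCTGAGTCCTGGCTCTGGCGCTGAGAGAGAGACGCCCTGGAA
IZUMO1, chr19:48746860-48747159, minus strand: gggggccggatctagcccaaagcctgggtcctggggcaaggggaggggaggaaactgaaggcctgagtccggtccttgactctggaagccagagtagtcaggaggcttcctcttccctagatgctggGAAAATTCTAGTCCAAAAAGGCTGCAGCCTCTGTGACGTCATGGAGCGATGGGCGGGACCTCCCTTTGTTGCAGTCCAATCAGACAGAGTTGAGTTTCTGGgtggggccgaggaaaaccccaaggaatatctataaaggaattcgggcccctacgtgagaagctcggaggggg
FTCDNL1, chr2:199851143-199851442, minus strand: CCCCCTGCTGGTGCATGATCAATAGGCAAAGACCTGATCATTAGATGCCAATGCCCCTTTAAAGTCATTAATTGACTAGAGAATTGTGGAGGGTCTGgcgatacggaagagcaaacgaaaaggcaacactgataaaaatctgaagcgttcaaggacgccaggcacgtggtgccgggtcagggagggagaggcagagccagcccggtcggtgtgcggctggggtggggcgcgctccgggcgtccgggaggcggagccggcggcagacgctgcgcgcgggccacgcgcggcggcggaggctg

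The ZNF823 SNP lay 25 bases after the start, the IZUMO1 SNP 73 bases before it and the FTCDNL1 SNP 204 bases before it. Searched on both strands, the ZNF823 window held GGGCGG, the GC box bound by Sp factors, 2 times and CCAAT, the motif of NF-Y, 1 time. The IZUMO1 window held the GC box, the NF-Y motif, the TATA box motif TATAAA and the CREB and ATF motif TGACGTCA 1 time each, and all but the TATA box lay in the capitals. Its SNP, at base 178 of the window, was the first base of the GGGCGG match. The FTCDNL1 window held CCAAT and the E-box CACGTG 1 time each. No matches overlapped, and CCGGAAG, the core of ETS factors, was in none of the 3. Of 22199 promoter windows of protein-coding genes, 56.3% held GGGCGG, 34.7% CCAAT, 9.5% TATAAA, 8.3% CACGTG, 12.8% CCGGAAG and 2.3% TGACGTCA.

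Total counts were 5875437, 7065140 and 6279476 in Neuro-2a replicates 1, 2 and 3 and 6116805, 7846563 and 7097846 in HEK-293T. The RNA of an allele was at 0 for 65, 75 and 96 members in Neuro-2a and for 13, 184 and 13 in HEK-293T, so HEK-293T replicate 2 had 12.7% of members at 0 and replicates 1 and 3 0.897% each. With counts of 0 left out, log2 counts of Neuro-2a replicate 1 correlated with HEK-293T replicate 1 at r = 0.793 over 1375 alleles, but with replicates 2 and 3 of its own line at 0.564 and 0.551. All libraries share the abundance of the plasmids in the pool, which raises every such correlation. Number 2 did not show this: Neuro-2a replicate 2 correlated with HEK-293T replicate 2 at 0.532, below 0.721 with HEK-293T replicate 3 and 0.651 with Neuro-2a replicate 3. Neuro-2a replicate 3 correlated with HEK-293T replicate 3 at 0.689, close to its 0.651 with Neuro-2a replicate 2. The replicate number was a block in the fit. Levels below are CPM, reads scaled to a common library size, and reads amplified by PCR without molecular identifiers are not independent molecules.

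Whether an allele differed in activity between the lines was tested on the RNA counts with edgeR's quasi-likelihood test. None of the 1449 alleles passed a Benjamini-Hochberg adjusted p of 0.05, neither higher in Neuro-2a (0.0% called) nor lower (0.0%), and the smallest adjusted p was 0.275. At an unadjusted p under 0.05, 47 alleles were higher (3.24%) and 41 lower (2.83%), 6.07% together. With the same model limma-voom called 25 higher (1.73%) and 12 lower (0.828%) and DESeq2 75 higher (5.18%) and 60 lower (4.14%). All 20 alleles chosen by rule for naming were among the calls of DESeq2 and 18 among those of limma-voom. They were chosen for a small p in the same libraries, so these calls are no separate support. The 3 Neuro-2a libraries lay above the 3 of HEK-293T for 76 alleles (5.24%) and below them for 74 (5.11%), 10.4% together. Libraries interchangeable between the lines would separate at about these shares, so a lack of overlap alone does not mark a difference. The median log2 difference was -0.04, with quartiles of -0.58 and 0.46, and the median SE was 0.574.

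Summing the reads of both alleles of a fragment gave 523 fragments, and 11 of these rose in Neuro-2a (2.1% of those tested) and 3 fell (0.574%) past the same threshold, 2.68% together. At an unadjusted p under 0.05 there were 84 fragments (16.1%). The 14 calls were lost without the replicate block, where the smallest adjusted p was 0.0502, and without replicate 1 or replicate 3 of both lines. They were also lost without Neuro-2a replicate 3 alone and without HEK-293T replicate 1 or 3 alone, and 4 fragments passed without Neuro-2a replicate 1. Without replicate 2 of Neuro-2a 57 passed and without that of HEK-293T 58. Without replicate 2 of both lines, 37 fragments passed, all 14 among them, and with library totals in place of scaling factors 1 passed.

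The smallest p of the comparison was at ZNF823. Allele 2 of its SNP with 50 bases in front had 4848, 4039 and 4819 CPM in Neuro-2a, against 931, 1082 and 937 in HEK-293T. Allele 1 of that fragment had 2582, 7292 and 7517 in Neuro-2a, against 509, 2030 and 1335 in HEK-293T. Every Neuro-2a library was above every HEK-293T library for both alleles. The log2 differences were 2.21 ± 0.19 for allele 2 and 2.23 ± 0.21 for allele 1 (SE, n = 3 libraries per line), each with an edgeR adjusted p of 0.275. With the reads of both alleles summed the fragment rose by 2.21 ± 0.20 with an adjusted p of 0.0141, the smallest of the 523. Against the input, allele 2 stood at a mean log2 RNA over DNA of 1.24 in Neuro-2a and -0.98 in HEK-293T.

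The other placements of the ZNF823 SNP had smaller differences between the lines. With 100 bases in front the log2 differences were 0.67 ± 0.24 for allele 1 and 0.70 ± 0.44 for allele 2, and with 150 bases in front they were -0.08 ± 0.28 and 0.06 ± 0.23, and the libraries of the lines overlapped in each case. Per library, the log2 ratio of the fragment with 50 bases in front to that with 150 was 1.57, 1.74 and 1.44 in Neuro-2a and -1.06, -0.52 and -0.55 in HEK-293T. The placement ratios of the lines did not overlap, and their means differed by 2.29. As this SNP was chosen after its values were seen, the ratios are a description. No source used here says which side of the SNP on the chromosome is called front. If front means the lower coordinate, the fragment with 50 bases in front reached bases 126 to 300 of the printed window and held both GGGCGG matches and the CCAAT match, while that with 100 reached bases 176 to 300 and that with 150 bases 226 to 300, and neither held any of them. If front means the higher coordinate, only the fragment with 150 bases in front held them. On a scaling common to all lines, the fragment with 50 in front ranged between 7373 and 12206 CPM in Neuro-2a and between 1340 and 3085 in HEK-293T, while SH-SY5Y had 2259, 3123 and 4495 and PC-12 had 1681 and 5460.

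At IZUMO1, allele 2 with 50 bases in front had 3047, 3563 and 1930 CPM in Neuro-2a, against 636, 1292 and 518 in HEK-293T. Its log2 difference was 1.87 ± 0.23 with an edgeR adjusted p of 0.347, and the lines did not overlap. Allele 2 with 150 bases in front had 800, 2813 and 3300 in Neuro-2a, against 399, 473 and 947 in HEK-293T, where Neuro-2a replicate 1 lay within the HEK-293T range. Allele 1 of the fragment with 50 bases in front had 2780, 2722 and 0 in Neuro-2a, against 670, 820 and 276 in HEK-293T. Its difference of 0.31 had an SE of 3.19. Summed over alleles, both of these IZUMO1 fragments rose in Neuro-2a, by 1.66 ± 0.24 and 1.62 ± 0.27, each with an adjusted p of 0.0430.

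At FTCDNL1, allele 1 with 50 bases in front had 1091, 1777 and 2551 CPM in Neuro-2a, against 402, 1017 and 1170 in HEK-293T, and allele 2 had 1205, 863 and 962 in Neuro-2a, against 366, 363 and 578 in HEK-293T. Neuro-2a was above HEK-293T in each number-matched pair, and allele 2 did not overlap. The log2 differences were 1.12 ± 0.21 and 1.23 ± 0.33, with edgeR adjusted p of 0.521 and 0.643. Against the input, allele 1 stood at a mean log2 RNA over DNA of -0.02 in Neuro-2a and -1.14 in HEK-293T. Allele 2 stood at -0.47 in Neuro-2a and -1.70 in HEK-293T, so neither mean was above the input in either line. Over the 3 promoter SNPs, 15 of 16 alleles had a positive difference, 6 had an unadjusted p under 0.05 and a positive sign and 0 a negative one, and the median was 0.81. Over all alleles tested, 3.24% were higher and 2.83% lower at that level, and the median was -0.04. This group was formed after its values were seen, so the counts are a description. A further 2 SNPs named by coordinate lay within 150 bases outside a promoter window. At AS3MT, which encodes arsenite methyltransferase, all 5 alleles had negative differences with a median of -0.76, and 1 had an unadjusted p under 0.05. At BCL2L12, a BCL2 family gene, 5 alleles lay between -0.15 and 0.56.

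Among the other alleles with higher values in Neuro-2a, an NT5C2 allele had the second smallest p. The SNP stands at position 103146454 of chromosome 10, in the cytosolic nucleotidase gene. Its allele 1 with 100 bases in front had 1584, 2620 and 2211 CPM in Neuro-2a, against 411, 738 and 505 in HEK-293T. Its log2 difference was 1.97 ± 0.17 with an edgeR adjusted p of 0.275. The other 3 member alleles of the SNP lay between 0.10 and 0.51 and overlapped between the lines.

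The SNP rs942820 had positive differences in all 6 of its alleles, between 0.80 and 3.79. The largest, 3.79 ± 2.94, 2.86 ± 2.91 and 2.15 ± 6.08, came from alleles at 0 CPM in HEK-293T replicate 2. The last of these was also at 0 in Neuro-2a replicate 3. Allele 2 with 50 bases in front had 4240, 3054 and 3302 CPM in Neuro-2a, against 1523, 1057 and 800 in HEK-293T. Allele 2 with 150 bases in front had 1493, 2591 and 1749 in Neuro-2a, against 749, 989 and 576 in HEK-293T. The lines did not overlap in 4 of the 6 alleles. The log2 differences of the alleles just given were 1.68 ± 0.20 and 1.33 ± 0.20, with edgeR adjusted p of 0.347 and 0.424. Summed over alleles the 2 fragments rose by 1.43 ± 0.21 and 1.33 ± 0.23, each with an adjusted p of 0.0430.

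Allele 1 of rs4648845 with 150 bases in front was the most even of the named alleles between HEK-293T libraries. It had 2359, 1853 and 1947 CPM in Neuro-2a, against 735, 732 and 768 in HEK-293T, a log2 difference of 1.45 ± 0.17. Against the input it stood at 1.36 in Neuro-2a and -0.09 in HEK-293T. The SNP at position 93951195 of chromosome 14 lies in ASB2, a substrate receptor of a ubiquitin ligase. Its allele 1 with 100 bases in front had 1530, 1658 and 1501 in Neuro-2a, against 711, 585 and 693 in HEK-293T. The groups did not overlap, and its log2 difference was 1.24 ± 0.21. Adjusted p by edgeR were 0.347 and 0.455. The other placements of the ASB2 SNP overlapped between the lines. With 50 and 150 bases in front, allele 1 stood at 0.72 ± 0.53 and -0.03 ± 0.53, and allele 2 at 1.49 ± 0.67 and 1.75 ± 2.97.

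In ANKRD63, an ankyrin repeat gene, the SNP is at position 40279991 on chromosome 15. Its allele 2 with 100 bases in front exceeded the input in both lines, with 2497, 6666 and 7179 CPM in Neuro-2a, against 1397, 2924 and 3168 in HEK-293T, so that the lines overlapped while each number-matched pair was higher in Neuro-2a. The log2 difference was 1.07 ± 0.17, the activity against the input 2.08 in Neuro-2a and 1.02 in HEK-293T, and the edgeR adjusted p 0.424. Summed over alleles the fragment rose by 1.08 ± 0.17 with an adjusted p of 0.0430. Near RCBTB1, a gene of the RCC1 family, 4 of the 5 alleles at position 49594829 of chromosome 13 did not overlap between the lines. These 4 had differences of 0.93 or more, and the fragment with 150 bases in front rose by 1.41 ± 0.24 when its alleles were summed, with an adjusted p of 0.0430. This SNP was singled out after its values were seen.

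SLCO6A1, a gene of the organic anion transporter family, held 2 SNPs, 45.9 kb apart, with named alleles of opposite sign. At position 102434022 of chromosome 5, allele 1 with 50 bases in front had 1481, 3493 and 3133 CPM in Neuro-2a, against 514, 1032 and 1426 in HEK-293T, a log2 difference of 1.47 ± 0.20. At position 102388171, allele 2 with 50 bases in front had 736, 783 and 832 in Neuro-2a, against 1292, 2346 and 2583 in HEK-293T, a log2 difference of -1.34 ± 0.25. Neither pair of groups overlapped, and the edgeR adjusted p were 0.424 and 0.521. Over their 6 alleles each, the first SNP had a median of 0.15 and the second of -1.29. The fragment of the first with 50 bases in front rose by 1.23 ± 0.20 over both alleles, with an adjusted p of 0.0430.

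The lower fragment with the smallest p lay on chromosome 3, at a SNP at position 177010804 in MTND5P15, a pseudogene of a mitochondrial NADH dehydrogenase gene, and 8540 bases from TBL1XR1, a gene of a corepressor subunit. With 100 bases in front, allele 1 had 433, 161 and 78.9 CPM in Neuro-2a, against 1616, 1545 and 1326 in HEK-293T, and allele 2 had 848, 1707 and 959 in Neuro-2a, against 2539, 3657 and 3971 in HEK-293T. No library of one line reached the range of the other. The log2 differences were -3.09 ± 0.56 and -1.58 ± 0.25, with edgeR adjusted p of 0.521 and 0.424. With both alleles summed the fragment fell by 1.85 ± 0.23 on the log2 scale, with an adjusted p of 0.0390. A further allele, with 150 bases in front, stood at -1.10 ± 0.31 without overlap, and the fourth at -0.13 ± 0.58. On a scaling common to all lines, the fragment with 100 in front ranged between 1027 and 1836 CPM in Neuro-2a and between 3867 and 5206 in HEK-293T, while SH-SY5Y had 3151, 5236 and 4499 and PC-12 had 3292 and 3391.

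A further 2 fragments fell in Neuro-2a when the alleles were summed. One lay 8643 bases from ACE, the angiotensin-converting enzyme gene, at position 63468418 of chromosome 17. Its allele 1 with 100 bases in front had 751, 1713 and 1111 CPM in Neuro-2a, against 1883, 3538 and 3811 in HEK-293T. The groups did not overlap, and the log2 difference was -1.38 ± 0.21. The other lay in EXOC4, a gene of the exocyst, at position 133753379 of chromosome 7. Its allele 2 with 150 bases in front had 130, 488 and 208 in Neuro-2a, against 458, 1687 and 839 in HEK-293T, with an overlap and a difference of -1.87 ± 0.29. Both single alleles had an edgeR adjusted p of 0.424, and the summed fragments fell by 1.27 ± 0.20 and 1.47 ± 0.22, with adjusted p of 0.0430.

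The remaining lower alleles had smaller differences. Chromosome 4 held 1, at position 64952689, inside the long non-coding RNA gene LINC02232, with EPHA5, an ephrin receptor gene, 366878 bases away. Its allele 2 with 150 bases in front had 481, 646 and 515 CPM in Neuro-2a, against 1284, 1243 and 1058 in HEK-293T. The groups did not overlap, the log2 difference was -1.13 ± 0.24, and all 6 alleles of the SNP were below 0, between -1.13 and -0.45. In SPECC1, a gene of a cytospin family protein, the SNP is at position 20038864 on chromosome 17, where allele 1 with 100 bases in front stood at -0.95 ± 0.15 and allele 2 with 50 bases in front at -0.96 ± 0.20. Near DTNB, the beta-dystrobrevin gene, allele 2 at position 25376303 of chromosome 2 stood at -1.02 ± 0.20, with 318, 2033 and 2274 in Neuro-2a, against 677, 5042 and 3623 in HEK-293T. Allele 1 at position 93475091 of chromosome 9, in the RNA-binding protein gene FAM120A, stood at -0.66 ± 0.15. The lines overlapped for these last 4 alleles, and the edgeR adjusted p lay between 0.424 and 0.590 for the 5 alleles.

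The sign differed between placements at PPP2R3A, which encodes a regulatory subunit of the phosphatase PP2A and was singled out after its values were seen. The difference between its placements was not tested. At position 136050568 of chromosome 3, the alleles with 50 bases in front stood at 1.28 ± 0.30 and 1.17 ± 0.28, and the sum of both rose by 1.23 ± 0.22 with an edgeR adjusted p of 0.0430. With 150 bases in front the alleles stood at -0.75 ± 0.17 and -0.73 ± 0.18. Allele 1 of that fragment had 2114, 1878 and 1736 CPM in Neuro-2a, against 3805, 2681 and 3200 in HEK-293T, with no overlap. Allele 2 with 100 bases in front, at a mean log2 RNA over DNA of 2.60 in Neuro-2a and 2.58 in HEK-293T, had a difference of 0.02 ± 0.25, and allele 1 one of -0.66 ± 0.57. The remaining calls over summed alleles were 1 fragment of rs4648845, at 1.28 ± 0.22, and 1 at position 8240516 of chromosome 8, 77220 bases from the pseudokinase gene PRAG1, at 1.17 ± 0.21 and an adjusted p of 0.0474.

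Alleles of a fragment share all but the SNP, and placements of a SNP share part of their sequence and its neighbourhood. Over 523 fragments, the log2 differences of allele 1 and allele 2 correlated at r = 0.186, with the same sign in 61.2%, and over the 304 fragments without an RNA count of 0 at r = 0.441, with the same sign in 65.8%. Between placements the correlations without counts of 0 were 0.223 for 50 with 100 bases in front, 0.231 for 100 with 150 and 0.145 for 50 with 150, over 201 to 216 SNPs. Over all members they were 0.131, 0.188 and -0.0612. These are descriptions over fragments that share libraries. Of the 158 SNPs with 5 or 6 member alleles, 14 had all alleles above 0, 12 had all below, and 132 had both signs. The differences of the 3 number-matched pairs correlated at 0.192 for replicates 1 and 2, 0.298 for 1 and 3 and 0.0945 for 2 and 3 over the 1097 alleles without a 0, and at -0.07 to 0.04 over all 1449.

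Set against the input, 105 alleles (7.25%) were above it in all 6 libraries and 349 (24.1%) below it in all 6. In opposite directions, 16 alleles (1.1%) were above the input in every Neuro-2a library and below it in every HEK-293T library, and 14 (0.966%) the reverse. The first kind included allele 2 of the ZNF823 SNP and 1 allele of rs4648845 and 2 of rs942820 named above. The second kind included allele 1 of the fragment in MTND5P15, at a mean log2 RNA over DNA of -2.43 in Neuro-2a and 0.64 in HEK-293T.

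Counts of 0 went with the most extreme fitted values. An RNA count of 0 was present in 352 alleles, 258 with 1 and 94 with 2, never more than 1 in a line. Their median SE was 3.13, against 0.434 in the 1097 alleles without a 0, and 70.2% of them had a difference of at least 1 in size, against 15.7%. The highest value of all, 6.13 ± 4.13, belonged to allele 1 of a fragment with 150 bases in front, at position 31997390 on chromosome 3 in the oxysterol-binding protein gene OSBPL10 and the zinc finger gene ZNF860. It had 3503, 6167 and 6183 CPM in Neuro-2a, against 2996, 0 and 92.3 in HEK-293T. Fitted on the 1097 alleles alone, 6 were higher past the threshold (0.547%) and 0 lower (0.0%) by edgeR. These 6 were the 2 alleles of the ZNF823 fragment, the NT5C2 allele, the IZUMO1 and rs942820 alleles with 50 bases in front, and 1 in the cohesin loader gene MAU2, allele 2 at position 19329257 on chromosome 19. The MAU2 allele with 150 bases in front had 150, 252 and 503 in Neuro-2a, against 3.59, 8.46 and 9.58 in HEK-293T, and lay below the input in both lines, at -0.48 in Neuro-2a and -5.60 in HEK-293T.

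The precision of a difference followed the abundance of the plasmid. The median SE was 1.71 in the lowest quartile of input counts and 0.710, 0.431 and 0.279 in the next ones, and alleles with an unadjusted p under 0.05 numbered 0 higher and 2 lower in the lowest quartile and 24 higher and 22 lower in the highest. Counts of 0 touched 49.9% of alleles in the lowest quartile and 8.84% in the highest. Medians lay between -0.08 and -0.01 for the 3 placements and were -0.03 for allele 1 and -0.04 for allele 2. Alleles inside protein-coding genes had a median of -0.02 over 905 alleles, those outside -0.10 over 455 and those named by rs number 0.02 over 89.

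Gene groups discussed for schizophrenia and neuronal function had few members. As no allele at all passed the threshold in the main edgeR fit, the 0 in the groups given here was fixed. The 8 alleles in voltage-gated calcium channel genes, in CACNA1C and CACNA2D2, had a median of 0.80, with 0 at an unadjusted p under 0.05. They came from 2 SNPs and had quartiles of -0.37 and 1.26. Their median SE was 1.03, above the median difference, and 37.5% had an RNA count of 0. Among 29 alleles in neuronal adhesion and synaptic genes the median was 0.23, and 3 had an unadjusted p under 0.05, all higher in Neuro-2a, against 3.24% higher and 2.83% lower over all alleles tested. These 3 lay in MSRA, which held 13 of the 29 alleles, with a median of 0.56. It encodes a methionine sulfoxide reductase, an enzyme that repairs oxidised protein, and not an adhesion or synaptic protein. The smallest unadjusted p elsewhere in the list were 0.0979 in protocadherin genes, 0.182 in ERC2 and 0.387 in RAB3IL1. The SNP of the 3 MSRA alleles lies at position 10388815 on chromosome 8, and all 6 of its alleles were above 0, between 0.56 and 0.96. Over the 3 SNPs in MSRA, 8 alleles were above 0 and 5 below, with 4 of 5 below 0 at position 10368845 and 1 of 2 at position 10175915. In transcription factor and chromatin genes 67 alleles had a median of 0.05, with 3 higher and 1 lower at that level, against the same 3.24% and 2.83% over all alleles. The 3 were both ZNF823 alleles and the MAU2 allele above, and the lower one lay in MAD1L1, at -0.63 ± 0.17. MAD1L1, a spindle checkpoint gene, held 15 of the 67 alleles. The lowest medians of single genes in that list were those of TCF4 and FOXP1. In TCF4, a basic helix-loop-helix factor gene, 5 alleles had a median of -0.76, and in FOXP1, a forkhead factor gene, 4 had a median of -0.63. The smallest unadjusted p were 0.0925 in TCF4 and 0.0817 in FOXP1. Over all alleles tested the median was -0.04.

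With the RNA of all 4 lines in 1 edgeR fit over 1436 alleles, 9 alleles were higher in Neuro-2a than in HEK-293T past the adjusted threshold (0.627%) and 3 lower (0.209%), 10 of the 12 among the alleles chosen by rule for naming. The others were allele 2 of the IZUMO1 fragment with 150 bases in front, at 1.83 ± 0.28, and 1 in PAK6. Both ZNF823 alleles with 50 bases in front stood at 2.24 there, with adjusted p of 0.0389, and allele 2 in MTND5P15 at -1.54 ± 0.19. PAK6 encodes a kinase, and the SNP, at position 40275036 on chromosome 15, also lies in the readthrough gene BUB1B-PAK6. Its allele 1 with 50 bases in front passed at 0.93 ± 0.14, with 1798, 2565 and 2838 CPM in Neuro-2a, against 1150, 1099 and 1600 in HEK-293T, and all 5 member alleles of that SNP were above 0.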

How the data were processed

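RNA and plasmid input were measured as read counts per fragment and allele. Each line was transfected in triplicate, and input libraries were made by PCR from the plasmids, per the labels' protocols. The deposited counts are whole, not normalized, and given per library. The submitters' processing notes name limma 3.40.6, and no source used here names the aligner, the counting tool or the build. No member had more than 1 RNA library of a line at 0. No 2 replicates agreed within sampling noise (chi-square per degree of freedom of 768 or more). The labels name no separate cultures or days, so p-values measure the spread between these libraries.

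Counts were analysed in R 4.3.3 with edgeR 4.0.16 (TMM scaling, mean count of at least 10, replicate number and line in the model, Benjamini-Hochberg adjustment at 0.05, two-sided). Levels are CPM after scaling, and for summed fragments CPM of the reads in those fragments. An SE is the fitted difference over the root of its F value. Activity against the input used a pseudocount of 1 CPM. The design of the comparison named the replicate number as a block. Deviations of same-numbered libraries from the mean of their line correlated at 0.431, 0.118 and 0.126 for numbers 1, 2 and 3. Replicates 2 and 3 also correlated across lines at 0.0863 and 0.0991, so only number 1 stood clearly apart. Without counts of 0, Neuro-2a replicate 2 correlated more with HEK-293T replicate 3 (0.263) than with 2 (0.155). DESeq2 1.42.0 and limma 3.58.1 were alternatives. The fit was also run on simulated counts, drawn without an effect of the replicate number, which checks the code and not these data. Named alleles were, per direction, the 10 past the threshold with the largest difference or, as none passed, those with the smallest p and the same sign in all 3 number-matched pairs. Members, lists and named features were chosen with earlier results of these data known, and the alternatives for summed alleles after seeing the data. The result of 1 gene list is not reported here.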

Additional observations from a re-analysis of the deposited data

How the results depend on the processing

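Each of the 20 named alleles kept its direction under all 21 alternatives, 420 values in all, of which 58 passed the threshold that none had passed before. The alleles were chosen for the same sign in all number-matched pairs, and the alternatives reuse those libraries. The kept direction therefore follows largely from the choice and is no separate support, and neither are the 58 values past the threshold. The counts of 0 alleles higher and 0 lower stayed at 0 without the replicate block, with other scaling, with input required in all input libraries, and without any replicate or single library. The other count minima removed no allele, so they left the fit as it was. At an adjusted p of 0.01 or 0.1, or with a fold of at least 1.5, only 0 was possible, as the smallest edgeR adjusted p was 0.275. The counts became 75 higher and 60 lower by DESeq2, 25 and 12 by limma-voom, 9 and 3 with the RNA of 4 lines in 1 fit, and 11 and 3 with the alleles of a fragment summed. Counts became 6 higher without alleles that have an RNA count of 0, 2 with counts of 0 as missing, and 4 with the input in the fit and no block, with 0 lower in each. For summed alleles, under alternatives chosen after seeing the data, the 11 higher and 3 lower fragments became 0 and 0 without the replicate block, 1 and 0 with library totals alone and 27 and 16 by DESeq2. Lower fragments numbered 6 by limma-voom and 6 without fragments that have an RNA count of 0, while the higher count stayed within 1.5 times. Leaving out replicates or single libraries gave 0 to 35 higher and 0 to 24 lower. The counts were 0 and 0 without replicate 1 or 3 of both lines, without replicate 3 of Neuro-2a and without replicate 1 or 3 of HEK-293T, 3 and 1 without replicate 1 of Neuro-2a, and highest without replicate 2 of either line. The cause was not tested. Such fits leave few residual degrees of freedom. Alleles in the lowest quartile of input had a median SE of 1.71 and an RNA count of 0 in 49.9%.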

Other observations

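Alleles present in only 1 of the 2 tables were not tested, although the lines share the plasmid input. Whether their RNA was too low in the other line to be kept was not tested. Neuro-2a had 22 such alleles and HEK-293T had 112, in 108 fragments. The 22 had medians of 2870 input counts and 923 RNA counts in Neuro-2a, with 14 at 0 in 1 library. The 112 had a median of 609 input counts and of 288 RNA counts in HEK-293T, and 87 of them had an RNA count of 0 in 1 HEK-293T library. The median input of the 1449 alleles in both tables was 3840 counts. In the tables of both SH-SY5Y and PC-12, 13 of the 22 and 89 of the 112 were present.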
